A study of Mus musculus with 6 samples.

Results

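The matrix metalloproteases (Mmp), the ADAMTS proteases (Adamts, secreted metalloproteases with thrombospondin repeats) and the tissue inhibitors of metalloproteases (Timp) were examined as 1 gene module in mouse squamous carcinoma libraries that differed in Sox2. Members were taken by symbol: Mmp followed by a number and an optional letter, Timp1 to Timp4, and Adamts followed by a number. This gave 46 genes of the 55385 mouse gene IDs in the count table, of which 23 were Mmp, 19 Adamts and 4 Timp genes.

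Most Mmp and Adamts proteins are zinc proteases made as inactive precursors and switched on when the propeptide is removed. Together they cut collagens, laminins, fibronectin and proteoglycans, and release growth factors held in the matrix. Timp proteins bind the active site and block it, so the balance between protease and inhibitor sets how much matrix is degraded. In skin carcinoma, both the tumour cells and the surrounding fibroblasts and white blood cells are known sources of these enzymes.

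The libraries came from PDVC57, an established mouse squamous carcinoma line of keratinocyte origin. A total of 3 libraries carried the genotype Sox2 KO and 3 the genotype Sox2 overexpression. The series' design text speaks of Sox2-low and Sox2-high cells taken from grafted tumours, and gives as its question which Sox2-driven programs of tumour stem cells act on neutrophils. Both groups are engineered, so the comparison holds no unmodified PDVC57 library. Whether a group is 1 clone or a pool, which promoter drives the added Sox2, and whether replicates are separate animals were not given in the sources used here, so the p-values measure the spread between these libraries only.

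Library totals lay between 31247976 and 38543221 counts over mouse genes. Sox2, the targeted gene and a transcription factor of stem cells, had 1.44, 1.12 and 0.685 CPM with knockout and 78.3, 128 and 104 CPM with overexpression, which separates the groups as labelled; here and below 3 values in a row are replicates 1, 2 and 3, and CPM is counts scaled to a normalized library size of 1000000 counts. Epithelial markers were present in every library, with a summed level of 4678 to 7382 CPM with knockout and 11942 to 16069 CPM with overexpression over 12 genes. Of these 12, 8 were higher and 0 lower with overexpression (edgeR quasi-likelihood test, adjusted p under 0.05). Fibroblast markers summed over 10 genes reached 53315 to 81334 CPM with knockout and 284 to 474 CPM with overexpression. Each of the 10 was lower past the threshold (edgeR quasi-likelihood test, adjusted p under 0.05). The collagen genes Col1a1, Col1a2 and Col3a1 made most of the sum in both groups. Endothelial markers (6 genes, 4 lower) summed to 28.1 to 97.7 CPM with knockout and 11.8 to 19.0 CPM with overexpression. Cdh5, Kdr and Cldn5, all lower, and Emcn, not tested, had at most 4 counts in an overexpression library. Pecam1 was lower too, with 68, 69 and 144 counts with overexpression. Tek overlapped between groups and made most of the overexpression sum, at 16.9, 9.34 and 15.1 CPM (adjusted p = 0.216, edgeR, not past the threshold). Markers of mural cells (5 genes, 4 lower and 1 higher) summed to 98.3 to 174 CPM and 60.3 to 75.3 CPM, in the same order. The higher gene, Notch3, made most of the overexpression sum, at 59.1, 73.7 and 63.9 CPM. Rgs5, Myh11, Cspg4 and Des each had at least 6.99 CPM in a knockout library and at most 0.824 CPM in an overexpression library. Ptprc, a general white blood cell marker, was lower as well (log2 fold change -6.34, adjusted p = 0.000611, edgeR). It had 363, 654 and 3215 counts with knockout and 14, 16 and 20 with overexpression. Of the 7 macrophage markers, among them Ptprc, 3 were lower and 0 higher past the threshold. Csf1r (log2 fold change 0.86) and Cd68 (0.49) had higher means with overexpression and did not pass it. How cells were isolated from the tumours, and whether a step removed stroma, is not given in the sources used here. These marker differences run with the groups, so fewer cells of a type in a library and less RNA per cell cannot be told apart for any result that follows.

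Most members of the module were lower with Sox2 overexpression. Of the 46 genes, 37 passed the filter on low counts, and 31 of these were lower and 0 higher with overexpression (edgeR quasi-likelihood test, adjusted p under 0.05). Over all 18504 tested genes, 18.0% were lower and 13.6% higher by the same rule. At an unadjusted p under 0.05 the counts were also 31 lower and 0 higher, and the DESeq2 Wald test gave 31 and 0. The median log2 fold change, overexpression over knockout, was -4.42 over the tested members (-4.11 with the 3 genes at most at 3 counts in every overexpression library set to their bounds) and -0.02 over all tested genes. By family, 14 of 17 tested Mmp genes were lower (median -3.56), 15 of 17 Adamts genes (median -4.88, or -4.48 with bounds) and 2 of 3 Timp genes (median -1.11). Every knockout library lay above every overexpression library for 30 of the 37, against 26.5% of all tested genes. The reverse held for 0 of the 37, against 24.4% of all tested genes, and 7 overlapped.

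A gene abundant in only 1 group passes the filter through that group alone, and such a gene could hardly fail to differ. The filter level was 0.306 CPM on raw library totals, before normalization. For 9 of the tested members every knockout library reached it, but not every overexpression library. For 1, Mmp24, every overexpression library reached it, but not every knockout library. The other 27 reached it in every library of both groups. Of those 27, 22 were lower, where 11.9% of the 14522 genes that reached it in every library were lower.

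The falls differed widely in size. A total of 25 members were at least 4-fold lower with overexpression (11.5% of all tested genes were). By fitted value, 20 members were at least 16-fold lower (7.12% of all tested genes). Adamts8 is among these 20 by its fitted log2 fold change of -6.85, though its bound against a floor of 3 counts is 15.5-fold. The 9 members that did not reach the filter level in every overexpression library are all among these 20. Over the 27 members that reached it in every library, the median log2 fold change was -3.41, against 0.08 over the 14522 such genes. Members were also sorted by the overexpression mean in percent of the knockout mean. On this scale 7 were at or under 1%, 16 between 1 and 10%, 7 between 10 and 50%, and 7 above 50%. Adamts8, Adamts15, Mmp3 and Mmp27, all at or under 1%, belong to the 9 members above. The summed fibroblast markers stood at 0.516%, with single markers between 0.0967% (Dpt) and 23.1% (Fbln1). Col1a1, Col1a2 and Col3a1 carried that sum, with knockout means of 23308, 17502 and 26731 CPM of 70368 CPM. The summed epithelial markers stood at 227%. How far the fibroblast marker difference takes part in the falls of the members was not tested.

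**Figure D1:**
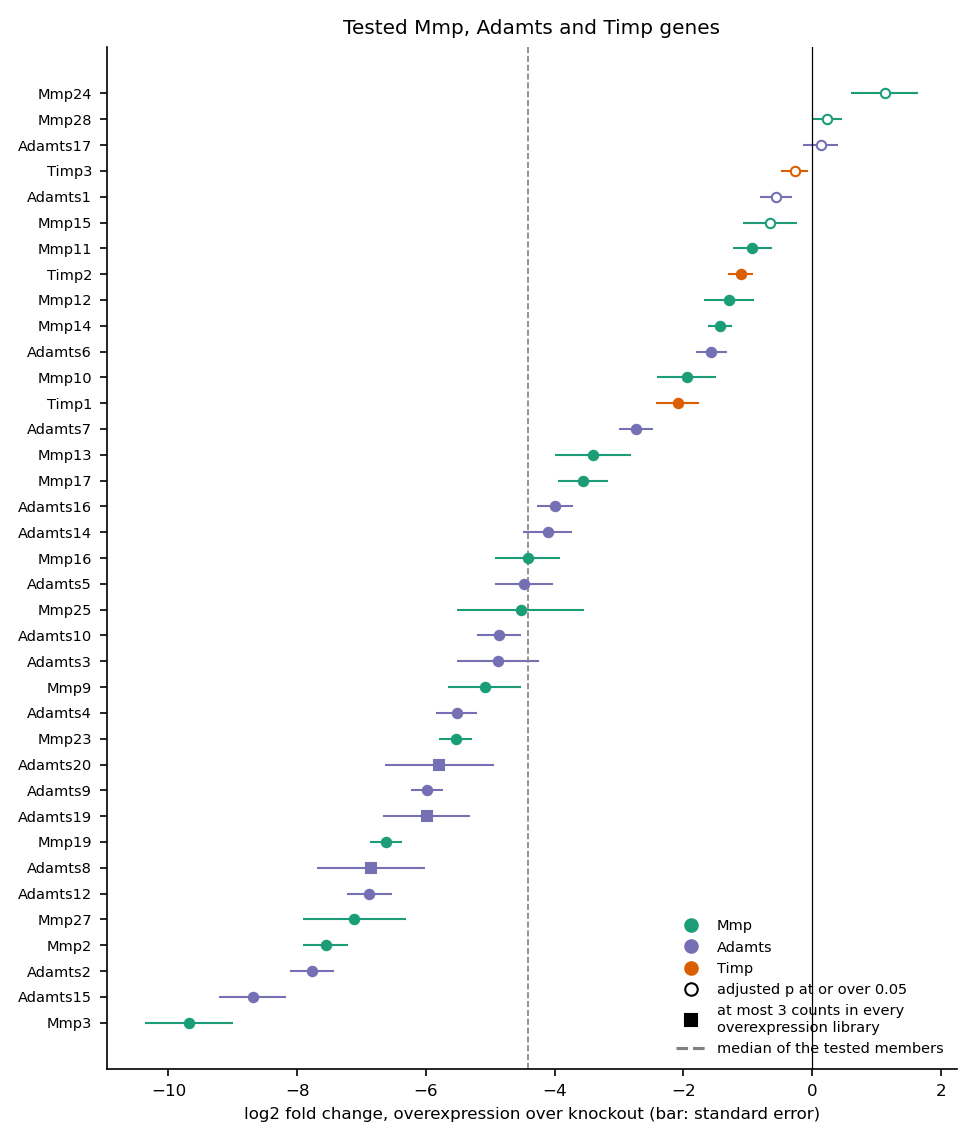
Log2 fold change (overexpression over knockout, x axis) of the 37 tested genes, with the standard error as a bar and the family by colour. Filled symbols passed an adjusted p of 0.05, and squares are genes with at most 3 counts in every overexpression library, whose fitted value is no bound. Values run from -9.68 for Mmp3 to 1.13 for Mmp24, and the 3 positive values (Mmp24, Mmp28 and Adamts17), none of which passed the test, are negative when libraries are scaled to equal levels of the 12 epithelial markers (the epithelial scaling).

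The gelatinases cleave denatured collagen and basement membrane collagen. Mmp2 (chromosome 8, 92827291 to 92853420) had 854, 1465 and 1276 CPM with knockout and 5.92, 4.70 and 8.35 CPM with overexpression. The lowest knockout library lay far above the highest overexpression library (log2 fold change -7.56, standard error 0.35, adjusted p = 1.98e-06, edgeR). Mmp9 (chromosome 2, 164940780 to 164955850), which is also stored in neutrophil granules, had 97.1, 44.4 and 29.9 CPM with knockout and 2.44, 1.86 and 0.784 CPM with overexpression. Its knockout values spread more than those of Mmp2 and were highest in replicate 1, yet the groups did not overlap (log2 fold change -5.09, standard error 0.56, adjusted p = 0.000203, edgeR). Without knockout replicate 1 the knockout mean of Mmp9 went from 57.1 to 37.1 CPM and its log2 fold change to -4.45. Summed neutrophil markers (8 genes) were 4.66 to 8.74 CPM with knockout and 2.68 to 9.98 CPM with overexpression. Ly6g had 1.88, 2.18 and 2.38 CPM with knockout and 4.94, 8.19 and 1.09 CPM with overexpression. It made most of the sum in overexpression replicates 1 and 2 (log2 fold change 1.14, not past the threshold). Of the 8 markers, 1 was lower past the threshold (Csf3r, log2 fold change -2.46, adjusted p = 0.0232, edgeR). S100a8 had 2, 8 and 70 counts with knockout and 1, 0 and 0 with overexpression, and S100a9 had 4, 8 and 14 counts with knockout and 0, 0 and 0 with overexpression, while Ly6g and Cxcr2 overlapped between groups. Elane and Retnlg had at most 1 count in any library, and Mpo had at most 9. The markers' part in the result for Mmp9 was not tested.

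Stromelysins act on proteoglycans, fibronectin and laminin and can activate other Mmp proteins. Mmp3, stromelysin 1 (chromosome 9, 7445822 to 7455975), had 112, 462 and 388 CPM with knockout and 0.458, 0.507 and 0.228 CPM with overexpression. This was the largest fitted fall of the module (log2 fold change -9.68, standard error 0.68, adjusted p = 1.38e-05, edgeR), and knockout replicate 1 was the lowest of its group. Mmp10, stromelysin 2 (chromosome 9, 7502352 to 7510240), had 18.4, 9.36 and 27.6 CPM with knockout and 2.59, 4.63 and 7.08 CPM with overexpression, a much smaller difference with groups close to each other (log2 fold change -1.95, standard error 0.46, adjusted p = 0.0117, edgeR). Its call was lost without overexpression replicate 2 (adjusted p = 0.0573). Mmp11 (chromosome 10, 75923222 to 75936496), called stromelysin 3 although it lacks the strong matrix-degrading activity of the others, had 139, 94.7 and 64.0 CPM with knockout and 40.6, 68.6 and 46.9 CPM with overexpression. Its groups overlapped, since overexpression replicate 2 lay above knockout replicate 3, and the call was marginal (log2 fold change -0.93, standard error 0.30, adjusted p = 0.0430, edgeR). It was lost without knockout replicate 1 (adjusted p = 0.148) or 2 (0.0924) and without overexpression replicate 1 (0.12) or 3 (0.126).

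Of the collagenases, which cut intact fibrillar collagen, Mmp13 was the only tested gene. Mmp13 (chromosome 9, 7272514 to 7283331) had 89.5, 171 and 49.7 CPM with knockout and 6.22, 5.04 and 17.8 CPM with overexpression. All knockout libraries lay above the overexpression libraries, among which replicate 3 was highest (log2 fold change -3.41, standard error 0.59, adjusted p = 0.00248, edgeR). Leaving that library out took the overexpression mean from 9.69 to 5.63 CPM and the log2 fold change to -4.18, and the fold change was -2.83 without knockout replicate 2. Mmp8, the neutrophil collagenase, had 5, 3 and 26 counts with knockout and 2, 0 and 0 with overexpression and was not tested. Mmp1a and Mmp1b, the rodent counterparts of interstitial collagenase, had at most 4 and 20 counts in a library and were not tested either. They resemble each other, so reads could be split between them in counting, and the exons of Mmp1b overlap those of Mmp12 on the other strand.

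Membrane-type enzymes act at the cell surface. Mmp14 (chromosome 14, 54431612 to 54445364), the main activator of the Mmp2 precursor, stayed high in both groups with 1017, 1099 and 964 CPM with knockout and 361, 467 and 315 CPM with overexpression. The fall was nonetheless beyond the spread of the replicates, and no overexpression library reached a knockout library (log2 fold change -1.43, standard error 0.19, adjusted p = 0.000644, edgeR). Mmp15, another transmembrane enzyme, had 34.0, 12.5 and 23.2 CPM with knockout and 22.0, 14.0 and 7.97 CPM with overexpression, and its groups overlapped (log2 fold change -0.66, adjusted p = 0.265, not past the threshold). Mmp16, a transmembrane enzyme too, had 8.12, 3.87 and 3.89 CPM with knockout and 0.122, 0.304 and 0.303 CPM with overexpression. Its overexpression libraries held 4, 9 and 12 counts, so the size of its fall rests on few reads (log2 fold change -4.42, standard error 0.50, adjusted p = 0.000248, edgeR).

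The lipid-anchored enzymes Mmp17 and Mmp25 were lower at a low level. Mmp17 had 107 to 208 counts with knockout and 10 to 16 with overexpression (log2 fold change -3.56, adjusted p = 0.000206, edgeR). Mmp25, known from neutrophils, had 20, 46 and 284 counts with knockout and 4, 6 and 4 with overexpression. Knockout replicate 3 carried most of that signal, and without it the mean with knockout was 1.05 in place of 3.30 CPM, and the log2 fold change -2.87 in place of -4.53 (adjusted p = 0.00748, edgeR). Of the knockout libraries, the same one had the highest sums of macrophage and neutrophil markers, at 112 and 8.74 CPM. Ptprc, a gene of the macrophage list, made 88.1 of those 112 CPM, with 3215 counts against 363 and 654 in the other knockout libraries. Whether white blood cells take part in the Mmp25 result was not tested. Mmp24 had 11, 5 and 6 counts with knockout and 10, 18 and 21 with overexpression, and its log2 fold change of 1.13 missed the threshold (edgeR, adjusted p = 0.136) and was -0.21 under the epithelial scaling.

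Among the remaining Mmp genes, Mmp12 encodes macrophage elastase. Mmp12 (chromosome 9, 7344381 to 7369499) had 34.9, 59.0 and 38.4 CPM with knockout and 19.3, 8.32 and 26.6 CPM with overexpression. The lowest knockout library stood only a little above the highest overexpression library (log2 fold change -1.29, standard error 0.39, adjusted p = 0.0345, edgeR), and the call was lost without knockout replicate 2 (adjusted p = 0.123) or overexpression replicate 1 (0.0627). The summed macrophage markers (7 genes) were 25.4 to 112 CPM with knockout and 13.9 to 28.1 CPM with overexpression. Ptprc alone made 10.6, 21.6 and 88.1 CPM of the knockout sums and 0.427, 0.541 and 0.506 CPM of the overexpression sums. Of the 7, Ptprc, C1qa and Lyz2 were lower past the threshold. Csf1r and Cd68 had higher means with overexpression and did not pass it, and Adgre1 and Mrc1 were not tested. The markers' part in the result for Mmp12 was not tested. Mmp19, an enzyme of basement membrane turnover, had 50.5, 65.4 and 68.0 CPM with knockout and 0.610, 0.474 and 0.759 CPM with overexpression. It was low in each overexpression library and its replicates were tight (log2 fold change -6.62, standard error 0.25, adjusted p = 1.44e-06, edgeR). Of its exon bases, 28.3% overlap genes on the other strand (Gm47093 and Tmem198b).

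Mmp23, an atypical membrane-bound enzyme, had 44.5, 75.3 and 64.6 CPM with knockout and 1.5, 1.18 and 1.26 CPM with overexpression. Again the groups lay far apart (log2 fold change -5.54, standard error 0.26, adjusted p = 2.05e-06, edgeR). Mmp27 had 111, 322 and 292 counts with knockout and 4, 0 and 1 with overexpression, so its fall ended near the floor of 3 counts (log2 fold change -7.11, adjusted p = 0.000221, edgeR). Without overexpression replicate 1 its other overexpression libraries held at most 1 count, and the fitted value moved to -8.64. Mmp28, epilysin, is made by keratinocytes, and it had 29.0, 28.2 and 17.0 CPM with knockout and 26.1, 26.2 and 34.7 CPM with overexpression. The groups overlapped, and its log2 fold change of 0.23 (adjusted p = 0.481, edgeR) turned to -1.09 (adjusted p = 0.00337) under the epithelial scaling. Mmp7 (matrilysin), Mmp20 (enamelysin, the enamel protease) and Mmp21 had at most 4 counts in any library and were not tested.

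**Figure D2:**
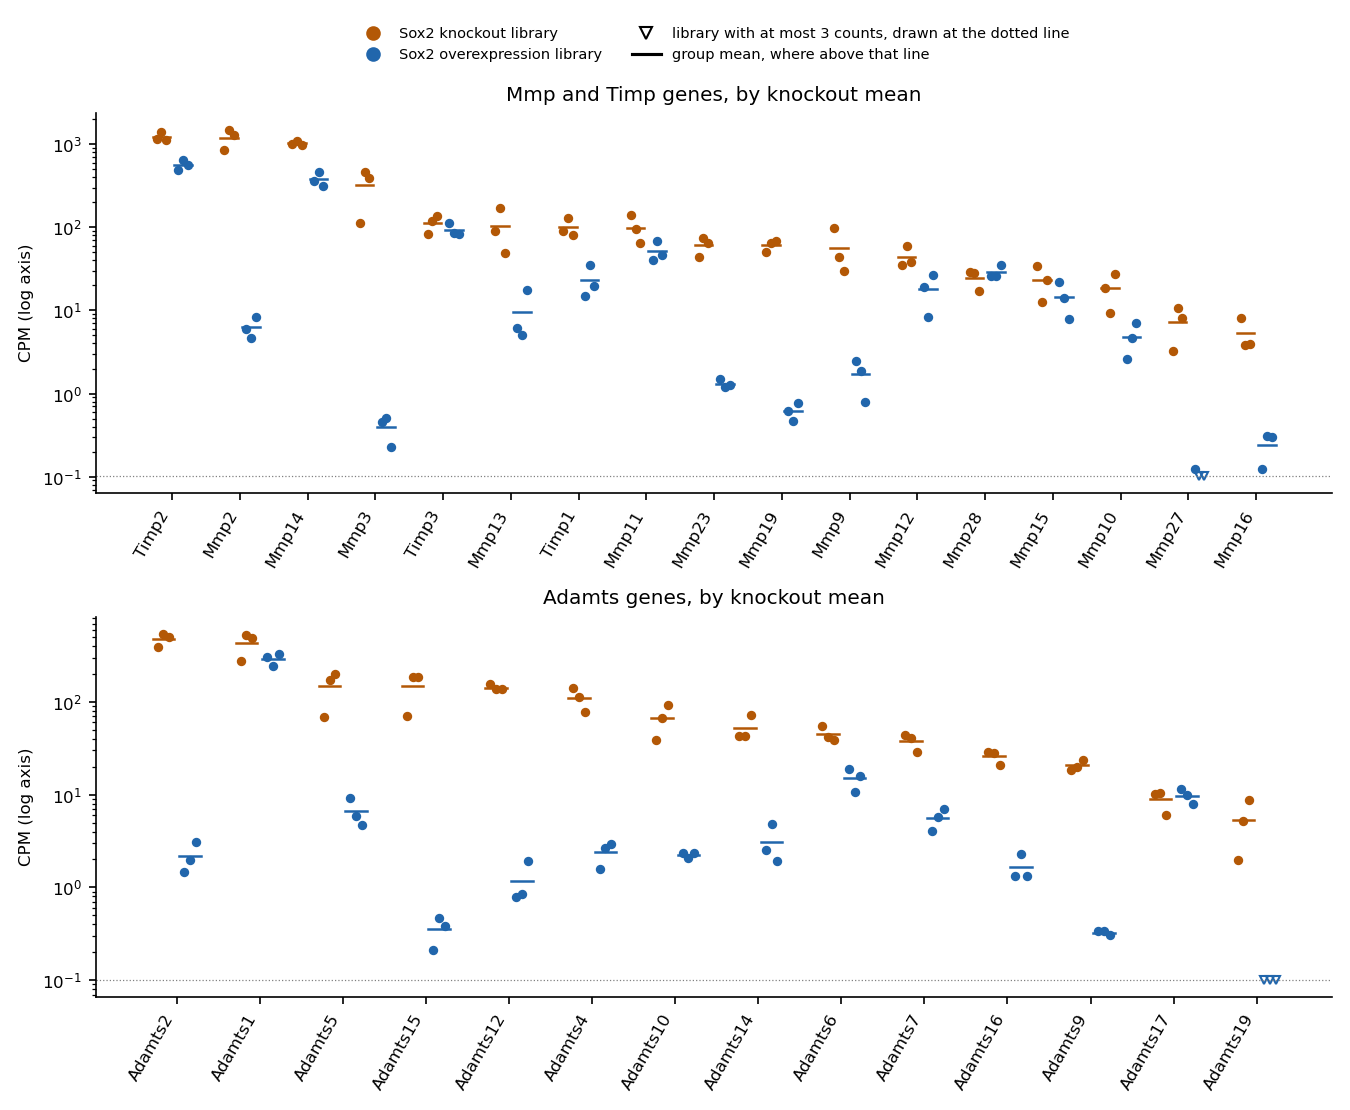
CPM (log axis) in each library for the tested members with a mean of at least 5 CPM in either group, ordered by knockout mean, with Mmp and Timp genes above and Adamts genes below. Each point is a library, lines are group means, and triangles are libraries with at most 3 counts. Timp2, Mmp14 and Adamts1 stay above 100 CPM in every library, while Mmp2 drops from 854 to 1465 CPM to between 4.70 and 8.35 CPM.

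The proteoglycanases of the Adamts family cut aggrecan and versican. Adamts4 (chromosome 1, 171250421 to 171260637) had 139.7, 113 and 78.0 CPM with knockout and 1.59, 2.67 and 2.93 CPM with overexpression. Its groups were far apart (log2 fold change -5.52, standard error 0.32, adjusted p = 5.08e-06, edgeR). Adamts5 (chromosome 16, 85856173 to 85901828), the other main aggrecanase, had 68.8, 173 and 202 CPM with knockout and 9.31, 5.82 and 4.75 CPM with overexpression, with knockout replicate 1 the lowest of its group (log2 fold change -4.48, standard error 0.45, adjusted p = 0.000114, edgeR). Adamts15 (chromosome 9, 30899155 to 30922452) had 70.5, 185 and 187 CPM with knockout and 0.214, 0.474 and 0.379 CPM with overexpression, after Mmp3 the next largest fitted fall (log2 fold change -8.69, standard error 0.52, adjusted p = 5.72e-06, edgeR). The farther relative Adamts9 cleaves versican and aggrecan as well and is known from development. It had 18.4, 19.9 and 23.8 CPM with knockout and 0.336, 0.338 and 0.303 CPM with overexpression, with close replicates in both groups (log2 fold change -5.98, standard error 0.25, adjusted p = 1.56e-06, edgeR). Adamts8 had 76, 47 and 34 counts with knockout and Adamts20 had 79, 52 and 57. Both had at most 3 counts in every overexpression library and were at least 15.5-fold and at least 18.4-fold lower, in that order, against a floor of 3 counts per library.

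Adamts1 (chromosome 16, 85793827 to 85803113), which cuts versican and was first described as an inflammation-linked gene, was the member of this class that was not called. It had 276, 528 and 488 CPM with knockout and 302, 245 and 330.0 CPM with overexpression. Knockout replicate 1 lay between the overexpression libraries, and the test was not passed (log2 fold change -0.56, standard error 0.25, adjusted p = 0.126, edgeR). Without knockout replicate 1 it did (log2 fold change -0.79, adjusted p = 0.0241), and across the alternatives run the adjusted p lay between 3.56e-05, under the epithelial scaling, and 0.362.

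The procollagen N-proteinases remove the amino-terminal propeptide of fibrillar procollagens so that fibrils can form. Adamts2 (chromosome 11, 50602084 to 50807573) had 392, 542 and 505 CPM with knockout and 1.47, 2.00 and 3.09 CPM with overexpression. All 3 knockout libraries were high and all 3 overexpression libraries low (log2 fold change -7.77, standard error 0.34, adjusted p = 1.56e-06, edgeR). Adamts14 had 42.9, 43.0 and 73.0 CPM with knockout and 2.53, 4.80 and 1.95 CPM with overexpression, with a smaller fall and knockout replicate 3 the highest (log2 fold change -4.11, standard error 0.38, adjusted p = 7.72e-05, edgeR). Adamts3 had 100, 89 and 107 counts with knockout and 5, 0 and 5 with overexpression (log2 fold change -4.88, adjusted p = 0.000571, edgeR). Of their collagen targets, Col1a1 was lower too, at 23308 CPM on average with knockout and 124 CPM with overexpression (log2 fold change -7.55, adjusted p = 1.56e-06, edgeR).

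Adamts7 and Adamts12 cut cartilage oligomeric matrix protein. Adamts12 had 154, 136 and 137 CPM with knockout and 0.793, 0.846 and 1.92 CPM with overexpression, with close knockout libraries (log2 fold change -6.88, standard error 0.35, adjusted p = 2.53e-06, edgeR). Adamts7 had 43.7, 40.5 and 28.6 CPM with knockout and 4.06, 5.78 and 7.06 CPM with overexpression, a smaller fall with a clear gap between groups (log2 fold change -2.74, standard error 0.26, adjusted p = 8.60e-05, edgeR). Adamts6 and Adamts10 act around fibrillin microfibrils. Adamts10 had 38.5, 67.7 and 93.1 CPM with knockout and 2.35, 2.06 and 2.38 CPM with overexpression, and its knockout libraries differed more among themselves than its overexpression libraries (log2 fold change -4.87, standard error 0.34, adjusted p = 1.33e-05, edgeR). Adamts6 had 54.5, 41.6 and 39.1 CPM with knockout and 19.1, 10.7 and 15.8 CPM with overexpression and its overexpression mean was 33.7% of its knockout mean (log2 fold change -1.57, standard error 0.24, adjusted p = 0.00130, edgeR).

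Of the less studied members, Adamts16 had 28.9, 28.1 and 20.7 CPM with knockout and 1.34, 2.27 and 1.31 CPM with overexpression, with groups well apart (log2 fold change -3.99, standard error 0.28, adjusted p = 1.47e-05, edgeR). Adamts19 had 1.99, 5.16 and 8.69 CPM with knockout and at most 3 counts in each overexpression library, so it was at least 52.0-fold lower. Adamts17, linked to connective tissue and eye development, had 10.3, 10.5 and 6.0 CPM with knockout and 11.4, 9.88 and 7.97 CPM with overexpression. The groups overlapped, and its log2 fold change of 0.13 (adjusted p = 0.746, edgeR) was -0.09 without knockout replicate 3 and -1.16 under the epithelial scaling. Adamts13, the von Willebrand factor protease of liver, had at most 5 counts in a library, and Adamts18 had 4, 28 and 23 counts with knockout and 4, 6 and 4 with overexpression; neither was tested.

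Of the inhibitors, Timp1 and Timp2 were lower and Timp3 did not pass the threshold. Timp1 (chromosome X, 20870166 to 20874735), a secreted inhibitor induced by growth factors and cytokines, had 89.6, 129 and 79.9 CPM with knockout and 14.8, 35.5 and 19.6 CPM with overexpression. The groups were separate (log2 fold change -2.09, standard error 0.33, adjusted p = 0.00158, edgeR), with overexpression replicate 2 the highest of its group. Timp2 (chromosome 11, 118301069 to 118355740), which both blocks Mmp14 and bridges it to the Mmp2 precursor, had 1163, 1393 and 1112 CPM with knockout and 484, 648 and 561 CPM with overexpression. That was a fall to 46.2% of the knockout mean with no overlap (log2 fold change -1.11, standard error 0.19, adjusted p = 0.00207, edgeR). Timp3 (chromosome 10, 86300372 to 86349506), which binds the matrix and also inhibits Adamts4 and Adamts5, had 83.7, 118 and 138 CPM with knockout and 112, 85.8 and 83.7 CPM with overexpression. These values overlapped and the difference did not pass the threshold (log2 fold change -0.27, standard error 0.21, adjusted p = 0.363, edgeR), except under the epithelial scaling (log2 fold change -1.68, adjusted p = 0.000247). Exons of Syn3 on the other strand overlap 21.3% of the Timp3 exon bases. Timp4 had 3, 0 and 5 counts with knockout and 1, 2 and 1 with overexpression and was not tested.

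To compare levels between genes, CPM was divided by the annotated exon length in kb. On this scale the highest members with knockout were Mmp2 (356 CPM per kb), Timp2 (314), Mmp3 (178), Mmp14 (172) and Timp1 (112). With overexpression the order was Timp2 (145), Mmp14 (64.0), Adamts1 (55.1), Timp1 (26.3) and Mmp11 (18.7). Mmp2 and Mmp3 left the top of the list, and at 1.88 and 0.221 CPM per kb were lower than Mmp28 (7.49).

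**Figure D3:**
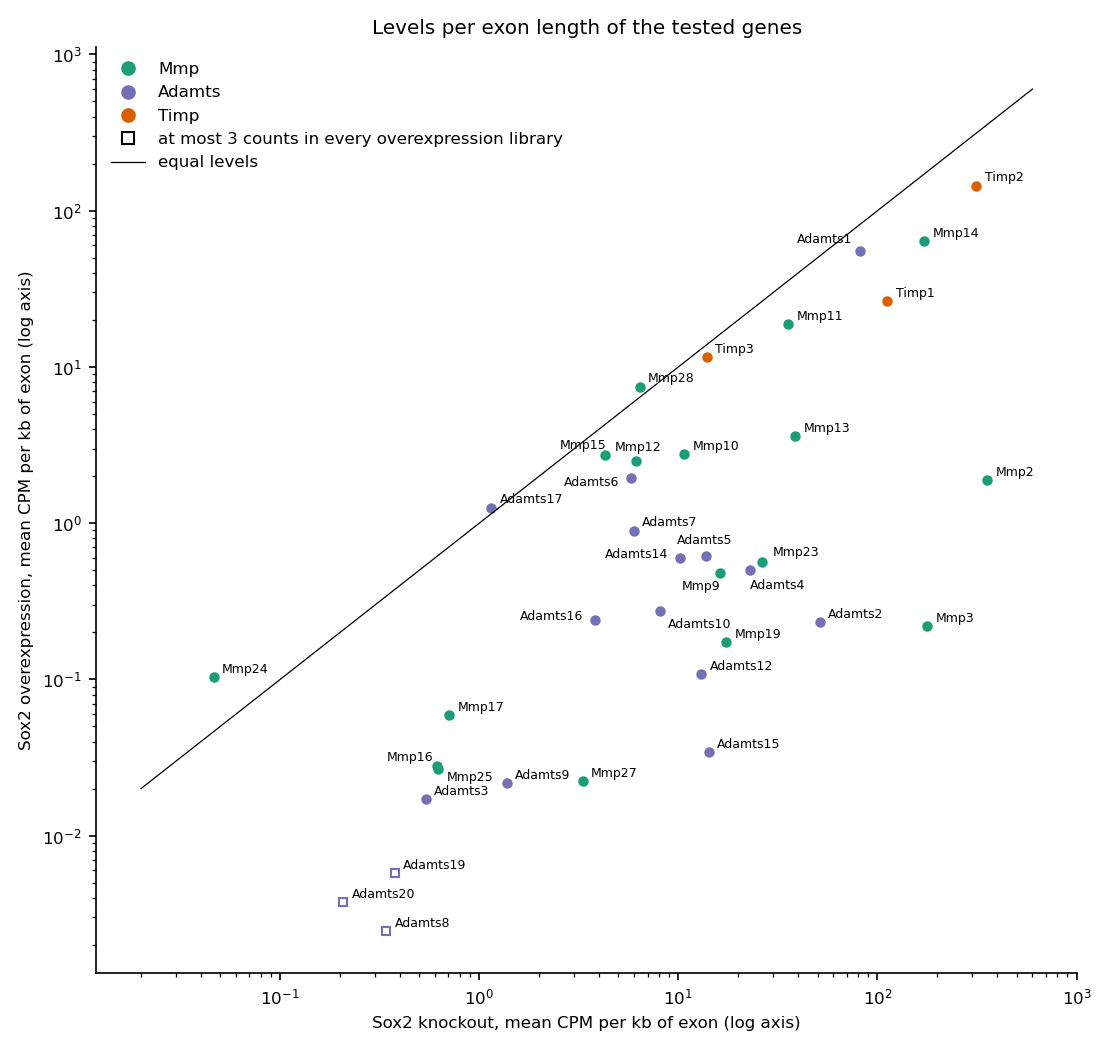
Mean CPM per kb of exon with knockout (x, log axis) against overexpression (y, log axis) for the 37 tested genes, coloured by family, with a line of equal levels. Timp2, Mmp14, Adamts1, Timp1, Mmp11 and Timp3 form the group that is high on both axes, while Mmp2 and Mmp3 are high on the x axis only; open squares had at most 3 counts in every overexpression library.

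Summed over each family, Mmp genes reached 664, 1067 and 889 CPM per kb with knockout and 96.4, 121 and 98.6 with overexpression. The Timp sums were 409.6, 517 and 392 with knockout and 155, 217 and 176 with overexpression. Mmp RNA therefore stood at 1.62, 2.06 and 2.27 times Timp RNA with knockout and at 0.623, 0.56 and 0.558 times with overexpression, so the Mmp sum was the larger in each knockout library and the Timp sum in each overexpression library. The ratio counts RNA and not active enzyme, and it was not tested. Adamts sums were 186, 264 and 253 CPM per kb with knockout and 63.9, 52.7 and 68.9 with overexpression.

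The make-up of the sums changed as well. Mmp2 made 38.2, 40.7 and 42.6% of the Mmp sum with knockout and 1.82, 1.15 and 2.51% with overexpression. Mmp14 made 25.7, 17.3 and 18.2% with knockout and 62.8, 64.6 and 53.6% with overexpression, although its own level fell. Adamts1 made 28.1, 37.7 and 36.3% of the Adamts sum with knockout and 89.0, 87.6 and 90.3% with overexpression. With overexpression, 8 of the 46 members were at 10 CPM or more in every library (Adamts1, Adamts6, Mmp11, Mmp14, Mmp28 and Timp1 to Timp3), against 26 with knockout.

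**Figure D4:**
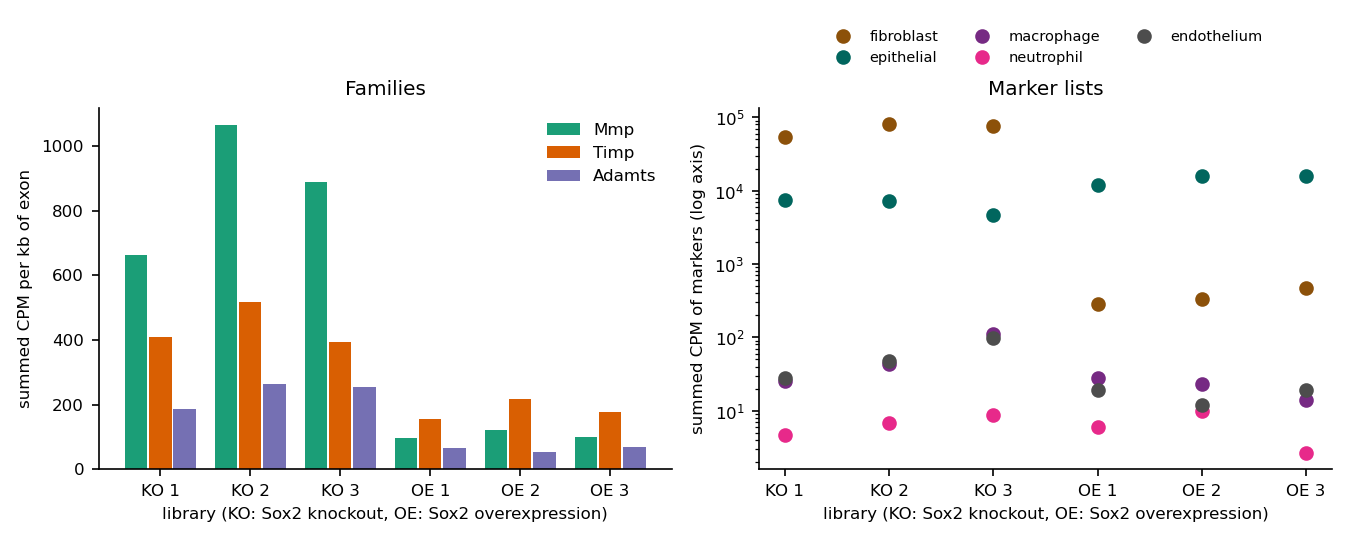
Left, summed CPM per kb of exon of the 23 Mmp, 4 Timp and 19 Adamts genes in each library; right, summed CPM (log axis) of the marker lists in the same libraries. The Mmp bar is the tallest in each knockout library and the Timp bar in each overexpression library, and fibroblast markers drop from over 53315 to at most 474 CPM across the same boundary.

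Of the Mmp genes, 10 lie next to each other on chromosome 9 between 7272514 and 7699585 (GRCm38), a span of 427 kb, in the order Mmp13, Mmp12, Mmp1b, Mmp3, Mmp1a, Mmp10, Mmp8, Mmp27, Mmp20 and Mmp7. The 5 that passed the count filter (Mmp13, Mmp12, Mmp3, Mmp10 and Mmp27) were all lower, by log2 fold changes from -9.68 to -1.29, where 18.0% of all tested genes were lower. Mmp3 and Mmp27 reached the filter level in every knockout library but not in every overexpression library, so the filter itself favoured a fall for these 2. The other 5 had at most 26 counts in a library. Neighbours had fold changes of unequal size, as Mmp3 at -9.68 lies between Mmp12 at -1.29 and Mmp10 at -1.95.

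**Figure D5:**
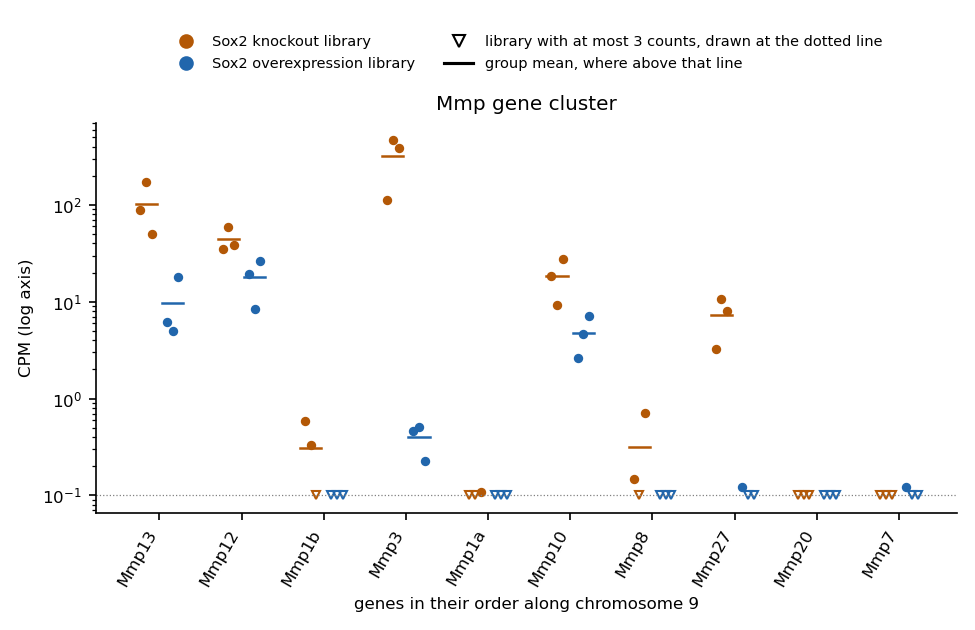
CPM (log axis) of the 10 Mmp genes of the chromosome 9 cluster in their order along the chromosome, 1 point per library, with triangles for libraries with at most 3 counts. Mmp3 shows the widest gap between knockout (112 to 462 CPM) and overexpression (0.228 to 0.507 CPM), and Mmp12 and Mmp10 the narrowest among the tested genes of the cluster.

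Promoter windows, 250 bases before to 50 after the start, were given in the RefSeq table (GRCm38.p6) for 32 of the 46 members, as 35 windows. They were searched for TGANTCA, the core of the AP-1 site, on both strands. A search for the TATA box TATAAA on the gene's strand followed, and one for the GC box GGGCGG on both strands. TGANTCA was found in 8 of the 35 member windows (22.9%) and in 7.81% of all 32851 windows, TATAAA in 28.6% and 8.32%, and GGGCGG in 51.4% and 35.7%. The 8 windows with TGANTCA all belong to the chromosome 9 cluster (Mmp1a, Mmp1b, Mmp3, Mmp7, Mmp10, Mmp12, Mmp13 and Mmp20), each of them also holds TATAAA, and none holds GGGCGG. A match is only a run of letters and does not show that a factor binds there. The sequences below set 3 cluster genes that were lower with overexpression against Mmp14 and Timp2, the highest members with overexpression per kb. They show the layout of the windows, not a relation to the level kept. The cluster gene Mmp12 had an overexpression mean of 40.9% of its knockout mean, against 37.1% for Mmp14. Mmp12 has a window with both TGANTCA and the TATA box (from 7347124) and another with none of the motifs (from 7344147). Counts are per gene and cannot be assigned to either window. Capitals mark the matches to the motifs searched.
Mmp3 (chr9:7445572-7445871, plus strand): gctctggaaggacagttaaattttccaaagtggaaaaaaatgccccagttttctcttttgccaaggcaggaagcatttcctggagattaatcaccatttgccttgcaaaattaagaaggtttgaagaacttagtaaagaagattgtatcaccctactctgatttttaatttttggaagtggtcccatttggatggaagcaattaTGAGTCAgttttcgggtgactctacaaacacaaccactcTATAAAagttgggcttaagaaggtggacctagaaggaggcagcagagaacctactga
Mmp10 (chr9:7502092-7502391, plus strand): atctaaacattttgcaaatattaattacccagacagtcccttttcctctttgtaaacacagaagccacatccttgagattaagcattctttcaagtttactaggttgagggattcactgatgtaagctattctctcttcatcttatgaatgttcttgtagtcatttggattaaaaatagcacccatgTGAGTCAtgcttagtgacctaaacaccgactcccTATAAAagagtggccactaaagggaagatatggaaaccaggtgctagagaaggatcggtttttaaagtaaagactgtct
Mmp13 (chr9:7272264-7272563, plus strand): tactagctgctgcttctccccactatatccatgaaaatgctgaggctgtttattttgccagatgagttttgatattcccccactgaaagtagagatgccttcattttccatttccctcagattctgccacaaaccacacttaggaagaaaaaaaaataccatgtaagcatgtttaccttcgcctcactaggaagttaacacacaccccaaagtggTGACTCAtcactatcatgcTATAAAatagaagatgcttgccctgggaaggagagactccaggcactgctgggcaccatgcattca
Mmp14 (chr14:54431348-54431647, plus strand): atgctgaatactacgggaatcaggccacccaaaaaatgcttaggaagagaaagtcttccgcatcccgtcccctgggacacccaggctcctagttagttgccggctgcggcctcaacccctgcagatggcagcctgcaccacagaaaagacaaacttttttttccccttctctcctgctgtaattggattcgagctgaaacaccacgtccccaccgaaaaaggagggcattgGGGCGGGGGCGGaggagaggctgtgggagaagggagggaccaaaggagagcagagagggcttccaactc
Timp2 (chr11:118355362-118355661, minus strand): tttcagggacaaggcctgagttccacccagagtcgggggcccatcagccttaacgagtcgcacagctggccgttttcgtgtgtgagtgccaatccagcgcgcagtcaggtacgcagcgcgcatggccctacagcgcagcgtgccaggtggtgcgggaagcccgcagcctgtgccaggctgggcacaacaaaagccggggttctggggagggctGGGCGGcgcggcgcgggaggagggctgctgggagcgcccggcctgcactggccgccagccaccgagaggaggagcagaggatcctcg

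In Mmp3, Mmp10 and Mmp13 the AP-1 core begins 46, 63 and 35 bases before the start and is followed by the TATAAA run, whereas Mmp14 and Timp2 hold only GC boxes of the letters searched. By log2 fold change the cluster genes shown spread from -9.68 (Mmp3) to -1.95 (Mmp10), so windows of the same layout came with falls of very different size. TGANTCA was found in 21.1% of the windows of members called lower and in 25% of the windows of members not called or not tested.

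The wider protease system was read from a list of 39 activators, inhibitors and neighbouring proteases. Of 37 tested, 23 were lower and 4 higher (18.0% and 13.6% of all tested genes), and the median log2 fold change was -1.19. The 5 with the smallest p-values were all lower. Ctsk, the collagen-degrading cathepsin K, had 239, 353 and 319 CPM with knockout and 1.37, 1.66 and 1.92 CPM with overexpression (log2 fold change -7.52, adjusted p = 1.06e-06, edgeR). Reck, a membrane inhibitor of Mmp2, Mmp9 and Mmp14, had 13.9, 24.5 and 29.0 CPM with knockout and 0.0610, 0.0338 and 0.127 CPM with overexpression (log2 fold change -8.11, adjusted p = 5.37e-06, edgeR). Adam19, Fap, a protease that marks activated fibroblasts, and Adamtsl1 had log2 fold changes of -6.92, -6.97 and -8.49. The overexpression libraries held 2, 1 and 5 counts of Reck, 11, 7 and 9 of Fap, and 4, 9 and 2 of Adamtsl1. Reck, Fap and Adamtsl1 did not reach the filter level in every overexpression library, so the filter itself favoured a fall for them. The sizes of their falls rest on few reads. The counts of this list were not split by the filter level.

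The 4 higher genes, named after their values were seen, were Papln (2.98), Adamtsl3 (2.62), St14 (1.63) and Adamtsl4 (0.83) by log2 fold change. Papln and the Adamtsl genes encode proteins related to Adamts without a protease domain, and St14 encodes matriptase, an epithelial serine protease. St14 had 145, 94.4 and 148 CPM with knockout and 432, 476 and 294 CPM with overexpression, so that each overexpression library was above each knockout library. The urokinase gene Plau, which starts the plasmin cascade upstream of Mmp activation, had 286, 258 and 301 CPM with knockout and 201, 259 and 198 CPM with overexpression and did not pass the threshold (log2 fold change -0.36, adjusted p = 0.129, edgeR), and its receptor Plaur did not either (log2 fold change 0.48, adjusted p = 0.108); both were also named afterwards. Scaled to epithelial markers, 2 genes of the list were higher.

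Of 22 matrix substrates, 20 were tested, with 13 lower, 2 higher (18.0% and 13.6% of all tested genes) and a median log2 fold change of -2.75. Col1a1, Col1a2, Col3a1 and Dcn, all lower, are also in the fibroblast marker list, so the 2 lists are not separate observations. The substrate counts were not split by the filter level. The smallest p-values belonged to Bgn, Col1a1, Vcan, Col1a2 and Nid1, all lower. Vcan, the proteoglycan cut by Adamts1, Adamts4 and Adamts5, had 139.8, 188 and 175 CPM with knockout and 3.78, 2.06 and 2.71 CPM with overexpression (log2 fold change -5.87, adjusted p = 1.93e-06, edgeR). Bgn, a small proteoglycan, had 1376, 2125 and 1672 CPM with knockout and 21.5, 25.8 and 22.5 CPM with overexpression, and Nid1, a basement membrane linker, had 484, 716 and 869 CPM with knockout and 1.92, 2.06 and 3.46 CPM with overexpression. Each of these 3 was lower in every overexpression library than in any knockout library. The 2 higher genes, named after their values were seen, were Lamb3, a chain of the epithelial laminin 332 (253, 263 and 144 CPM with knockout and 454, 661 and 696 CPM with overexpression), and Col2a1, which had 5, 2 and 10 counts with knockout and 27, 38 and 22 with overexpression. The number higher was 1 without knockout replicate 2 or without overexpression replicate 2, and 0 under the epithelial scaling. Basement membrane collagens Col4a1 and Col4a2 had log2 fold changes of -0.31 and -0.27, which did not pass the threshold.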

How the data were processed

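The values deposited by the authors are raw whole-number counts for each gene and each of 6 libraries, per the file headers. Kallisto 0.44.0 and the build mm10 are named, without a role, per the submitters' processing notes; the annotation, the strand setting and any filter are not given in the sources used here. RNA came from a column kit for small samples and a low-input library kit, per the labels' protocols. The 92 spike-in and 4 construct rows (at most 2.23e-05% of a library) were left out. Symbols were found for 55144 of 55385 gene IDs in the GENCODE M21 table (GRCm38), which also gave positions and exon lengths.

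Genes passing filterByExpr (minimum count 10, minimum total 15) were normalized with TMM and compared with edgeR 4.0.16 (R 4.3.3, quasi-likelihood test, group as only term, Benjamini-Hochberg over 18504 genes, threshold 0.05). Standard errors are the log2 fold change over the square root of F. A fold against a group with at most 3 counts per library is a bound against 3 counts in its shallowest library (0.102 CPM), for counting error only. Members and lists were chosen with earlier results of these data known. Library values were given for members past the threshold with a mean of at least 5 CPM in a group, the Timp genes, Mmp2, Mmp9 and Mmp14, and beyond that rule for members not past the threshold; of the 2 other lists, the 5 smallest p-values were named. Alternatives were RLE or upper-quartile factors, no filter, a robust fit, the replicate number as a block, and the DESeq2 1.42.0 Wald test. Another scaled each library by the median, over 12 epithelial markers, of its log counts centred per gene. Further alternatives left out each library in turn. The motifs TATAAA and GGGCGG were added after member values were seen. No 2 libraries were alike within sampling noise (chi-square per degree of freedom at least 37.7 for a pair).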

Additional observations from a re-analysis of the deposited data

How the results depend on the processing

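Of the 31 members called lower, 28 kept the call under each of the 13 alternatives run, and Mmp10, Mmp11 and Mmp12 lost it only when 1 library was left out. The number lower was 31 with RLE or upper-quartile factors, the robust fit, the replicate block and DESeq2, 32 with no filter, and 29 to 32 with 1 library left out. No member was higher under any alternative. Of the 12 epithelial markers, 8 were higher and 0 lower with overexpression in the main fit. Scaling to equal levels of these markers shifted fold changes down across genes and called 36 members lower. The median over tested genes went from -0.02 to -1.39 (log2) under this scaling. Under it 14868 genes were called, 14580 lower and 288 higher, with 2 genes of the protease system list and 0 of the substrate list higher. The scaling also gave negative log2 fold changes to Adamts17 (-1.16) and Mmp28 (-1.09), both then called lower. Mmp24 went to -0.21 (adjusted p = 0.776, edgeR) and was not called. These sign changes are part of the same downward shift. Adamts17 ran from -0.09 (without knockout replicate 3) to 0.27 with 1 library left out, and the cause of that range was not tested. With 1 library left out, 1446 to 2599 genes were higher over all, and 1 to 2 in the substrate list. The fitted values of Adamts8 and Adamts20, which rest on at most 3 counts, ran from -8.76 to -6.28 and from -9.01 to -5.13 in those fits.

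The replicate numbers are not said to mark a shared animal or batch. Deviations of same-numbered libraries from their group means were correlated at 0.051, 0.022 and -0.04 across genes. Pairs with unlike numbers lay between -0.067 and 0.05. With so few libraries these values cannot tell whether same-numbered libraries share an animal or batch. With the replicate block, 5593 genes were called in place of 5848. Depth limits the 9 untested members, which had at most 28 counts in a library.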

Other observations

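Other Adamts genes lie beside each other too, and neighbours did not always move alike. Adamts15 and Adamts8 lie 20.1 kb apart on chromosome 9 and were both lower, by a log2 fold change of -8.69 for Adamts15 and at least 15.5-fold for Adamts8. Adamts1 and Adamts5 lie 53.1 kb apart on chromosome 16. Adamts5 fell to 4.48% of its knockout mean, while Adamts1 stood at 67.8% and did not pass the threshold; whether the fold changes of these 2 genes differ was not tested.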
